A study of Mus musculus with 12 samples.

Results

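The interleukins and their receptors were followed in RNA sequencing of mouse heart ventricles. Members were all genes of the deposited count table whose symbol begins with Il and a digit. There were 85 such gene models, with 83 symbols, among 55421 genes. Of these, 44 reached a mean of at least 0.1 CPM (counts scaled to a common library total) in 1 of the 3 groups and were tested with 18898 genes of the whole table. The match also took Il4i1, an amino acid oxidase, and Il1bos, an antisense transcript of the Il1b locus, which are neither interleukins nor receptors.

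All mice were labelled wild type, and each group had 4 ventricle libraries. Saline mice had saline with vehicle. AngII mice carried an osmotic minipump with angiotensin II (Ang II, a pressor peptide) from day 0 and had vehicle. AngII_FI mice had the same pump and Forsythoside I, a plant glycoside, at 50 mg/kg into the peritoneum every other day from 1 day before the pump to day 14. No group had Forsythoside I without Ang II. The labels used here name no strain, sex or age, and nothing says how animals were assigned to libraries, so p-values measure the spread between these libraries. The 5 cardiomyocyte markers summed to 22880 to 34130 CPM per library, with none at 0.

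Interleukins are secreted proteins through which immune cells and tissue cells signal to each other. A ligand binds a specific receptor chain, which pairs with a shared chain: the common gamma chain Il2rg for interleukins such as IL-2, IL-4, IL-7 and IL-15, gp130 (Il6st) for IL-6 and IL-11, and Il1rap for IL-1 and IL-33. Most of these receptors signal through JAK kinases and STAT factors, while the IL-1 and IL-17 families signal through adaptors to NF-kB. In the heart, IL-6, IL-11, IL-1 and IL-33 are studied in hypertrophy, fibrosis and inflammation.

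The stretches upstream of Il4ra, the member past the threshold, and of Il6, the ligand with the largest fitted log2 fold change in AngII against saline, where it did not pass, are shown because the factors above act at such sites. They are RefSeq promoters on the GRCm38.p6 build, which held 35 of the 44 tested members. Each is written 5′ to 3′ on the plus strand, with motif matches in capitals.
Il4ra, chr7:125552021-125552119: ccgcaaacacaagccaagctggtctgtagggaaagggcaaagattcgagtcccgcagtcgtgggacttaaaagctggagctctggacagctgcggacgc
Il6, chr5:30012864-30013113: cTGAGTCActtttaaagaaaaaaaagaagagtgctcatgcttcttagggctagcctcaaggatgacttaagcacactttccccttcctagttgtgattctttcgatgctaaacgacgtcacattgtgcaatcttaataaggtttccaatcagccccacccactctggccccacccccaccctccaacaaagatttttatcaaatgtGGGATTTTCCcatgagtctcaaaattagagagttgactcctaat
The Il4ra stretch is 99 bases long and ends where the GENCODE gene model starts, and the Il6 stretch is the 250 bases before the start. Motifs were searched on both strands of the 250 bases before each RefSeq start. They were GGG and TTTCC with any 2 bases between them (NF-kB, in 1.41% of 32851 promoters), TGANTCA (AP-1, 6.75%), TTC and GAA with any 3 bases between them (STAT, 7.02%) and TTC and GAA with any 4 bases between them (STAT6, 5.85%). Il6 held the NF-kB letters at -44 to -35 and the AP-1 letters at -249 to -243 from the start. None of the 4 was found in the Il4ra window. A match is a description of letters, not a site.

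Receptors were detected more often than ligands. Of 44 receptors, decoys and binding proteins 29 were tested and 5 had no count in any library, whereas of 39 ligands and antagonists 14 were tested and 17 had no count. The 22 models without a count included the ligands Il2, Il3, Il9, Il10, Il13, Il17a, Il17f, Il21 and Il22. At the depth of 68874852 to 80624227 counts per library, 3 counts equal 0.0372 to 0.0436 CPM, the level that a count of 0 allows; single libraries held values of 1 or 2 counts below it. A further 19 members had 3 to 52 counts over all 12 libraries and stayed below the filter, among them Il1a, Il1r2 and Il13ra2. Of the 44 tested members, 38 had counts in all 12 libraries and 39 passed the filter in all 3 groups. Il11 and Il17rb passed through AngII_FI alone, Il12a and Il23a through saline and AngII_FI, and Il6 through the 2 groups with Ang II.

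Per kilobase of exon, Il10rb, a receptor chain shared by IL-10 and IL-22, had the highest level, at 25.1 ± 6.99 CPM per kb in saline (SD, n = 4). Its saline spread came from saline 1, at 56.0 CPM beside 106 to 113 CPM in the other 3. It was followed by Il13ra1, a chain of the IL-4 and IL-13 receptor, at 13.7 ± 1.33 and by Il11ra1, the IL-11 receptor, at 13.3 ± 1.57 CPM per kb. Il13ra1 and Il11ra1 did not differ beyond their spread. The highest ligand was Il15, at 10.9 ± 1.37 CPM per kb, above the shared chain Il6st at 8.62 ± 0.833. In AngII Il6st stood above Il15, and Il4ra stood at rank 7, against rank 10 in saline and in AngII_FI. Il6 had the lowest saline level, at 0.0147 CPM per kb.

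**Figure D1:**
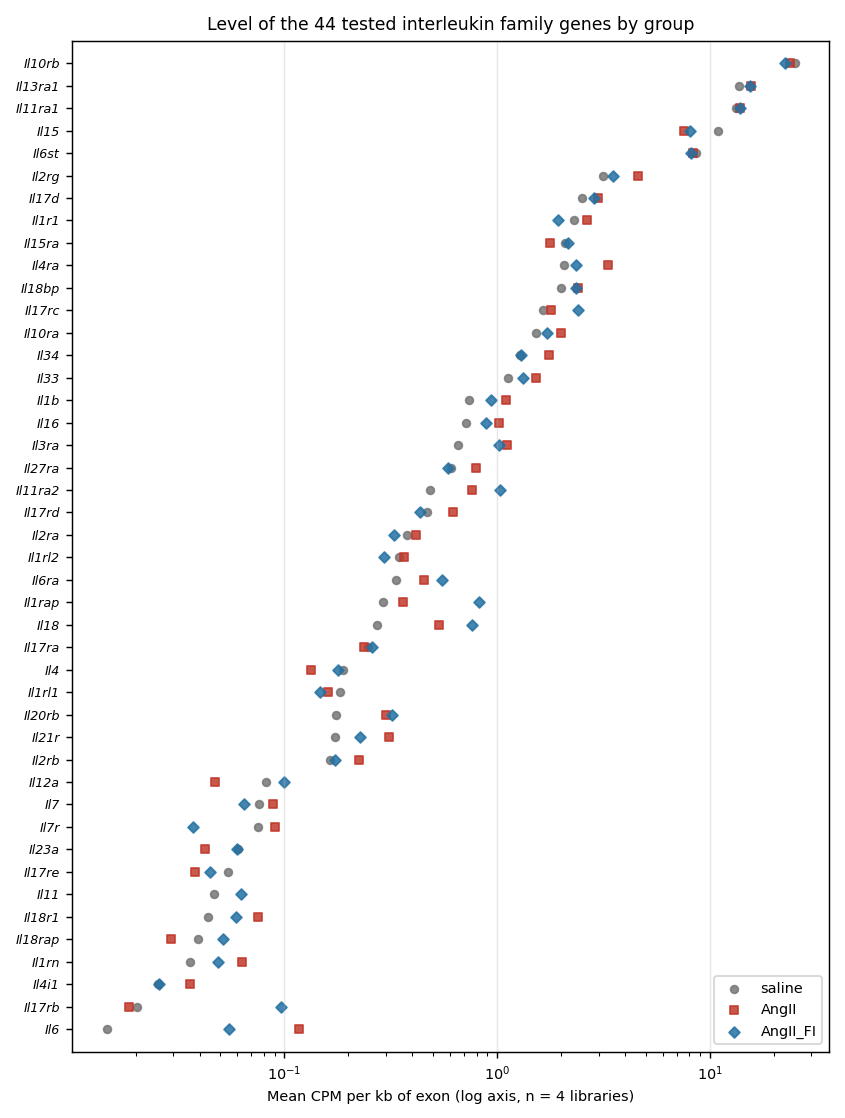
Mean level of each of the 44 tested members in saline, AngII and AngII_FI, in CPM per kb of exon on a log axis, with genes ordered by their saline mean. Il10rb, Il13ra1, Il11ra1, Il15 and Il6st lead in saline, and Il6 is lowest.

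Ang II against saline asks which members moved with pressor infusion. Il4ra, the IL-4 receptor alpha chain that also serves IL-13, rose, and it was the 1 member of 44 past an adjusted p of 0.05 in edgeR's quasi-likelihood test, against 1.23% of all tested genes called higher. No member was called lower, against 0.429% of all genes. Without AngII_FI 3, which is in the same fit, Il4ra stayed called, against 2.33% of all genes higher, and Il15 was called lower, against 1.28%. At an unadjusted p under 0.05 there were 8 members, 6 higher and 2 lower, against 15.7% of all genes. The median log2 fold change of the members was 0.27, beside 0.00 over all genes. Of the 44 members 31 were above 0, beside 9507 of 18898 genes.

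Il4ra (chr7:125552120-125579474, GRCm38) had 12.5, 11.9, 13.6 and 11.6 CPM in the saline libraries and 20.7, 19.6, 17.8 and 21.7 CPM in the AngII libraries. All 4 AngII libraries lay above all 4 saline libraries. The means were 12.4 ± 0.878 and 19.9 ± 1.64 CPM (SD, n = 4), a log2 fold change of 0.67 ± 0.13 (SE; adjusted p = 0.0279 in edgeR). The call was also made by DESeq2 (adjusted p = 2.52e-04), against 673 of 18898 genes called higher, and by limma-voom (adjusted p = 0.0203), against 279. It was lost without saline 1, 2 or 4 or any 1 AngII library, with adjusted p from 0.00922 to 0.0859 over the 12 libraries left out in turn in edgeR. In bulk tissue, fewer cells of a type and less RNA per cell cannot be told apart. The summed level of 10 macrophage markers, none at 0, was 279 to 396 CPM in saline and 445 to 517 CPM in AngII, that of 4 monocyte markers 4.84 to 7.81 and 8.27 to 14.7 CPM, and that of 6 resting fibroblast markers 676 to 888 and 916 to 1043 CPM. Within the monocyte sum, Ccr2 went from a mean of 3.91 to 8.20 CPM, while Chil3 went from 0.25 to 0.0669 CPM. Of the 4 monocyte markers, 3 had log2 fold changes above 0, and none passed. The part of these cell types in the Il4ra result was not tested. An antisense model, Gm44876, shares 571 exon bases with Il4ra and had 5 counts in all libraries together.

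Other common gamma chain receptors did not pass. Il2rg, the shared chain itself, had 7.37, 8.23, 9.59 and 4.98 CPM in saline and 12.5, 9.92, 11.2 and 10.3 CPM in AngII, without overlap (0.53 ± 0.19, adjusted p = 0.202 in edgeR). Il21r, the IL-21 receptor, had 0.572 ± 0.15 CPM in saline and 1.03 ± 0.32 CPM in AngII, also without overlap (0.83 ± 0.26, adjusted p = 0.14 in edgeR). In all, 6 members lay higher in AngII without overlap (Il4ra, Il2rg, Il21r, Il3ra, Il6ra and Il20rb), against 7.26% of all genes. Overlap was read on CPM, which leave out the TMM factors that scale libraries in the test. Il3ra had 2.87 CPM in saline 4 (TMM factor 1.02) and 3.01 CPM in AngII 1 (TMM factor 1.08). Divided by these factors, its groups overlap. Il3ra, the IL-3 receptor alpha chain, had means of 1.95 and 3.29 CPM, and Il20rb, a chain of the IL-20 receptor, 0.736 and 1.26 CPM. Il7r and Il2ra, receptor chains for IL-7 and IL-2, had log2 fold changes of 0.27 ± 0.60 and 0.11 ± 0.20.

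Il15, a ligand of the common gamma chain (chr8:82331632-82403222), was the 1 member without overlap that lay lower in AngII, against 4.3% of all genes. It had 23.7, 25.3, 21.2 and 28.6 CPM in saline and 14.5, 16.6, 16.3 and 20.6 CPM in AngII. The log2 fold change was -0.55 ± 0.13 with adjusted p = 0.0584 in edgeR, just short of the threshold. DESeq2 gave adjusted p = 0.00457 and limma-voom 0.0479, and over 21 alternatives the adjusted p ran from 0.00457 to 0.164, with 5 below 0.05. DESeq2 called 455 of 18898 genes lower, and limma-voom 132. Without saline 3 or without AngII_FI 3, edgeR also called Il15 (0.046 and 0.0385). Its receptor Il15ra had 9.29 ± 1.94 CPM in saline and 7.90 ± 1.2 CPM in AngII (-0.25 ± 0.21), and the ligands Il7 and Il4 stayed below 1 CPM in every library.

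In the gp130 group, Il6 had 5, 0, 0 and 5 counts in saline and 28, 19, 28 and 5 counts in AngII. The fourth AngII library lay within the saline range, and the log2 fold change of 2.90 ± 1.05 had adjusted p = 0.201 in edgeR. Il6 had entered the tests through the 2 groups with Ang II and not through saline, so a higher value there was in part selected for. Il11, a profibrotic ligand, had 7, 16, 4 and 0 counts in saline and none in the 4 AngII libraries, at least 9.33-fold lower against a floor of 3 counts over the group. This bound takes the summed saline counts as exact and leaves out the spread between libraries. Without saline 2 it was 5.05-fold, and the groups overlapped (adjusted p = 0.277 in edgeR). Its receptor Il11ra1 had 59.4 ± 7.04 and 62.2 ± 0.886 CPM, and Il6st, gp130, 95.7 ± 9.25 and 92.6 ± 6.39 CPM. Il6ra, which binds IL-6, had 2.62 to 3.14 CPM in saline and 3.35 to 5.09 CPM in AngII (0.43 ± 0.28, adjusted p = 0.538 in edgeR). Without AngII_FI 3 in the fit, Il6ra had 0.43 ± 0.17 and did not pass either (adjusted p = 0.194 in edgeR). Il27ra, the IL-27 receptor, had 2.11 ± 0.0702 and 2.78 ± 0.688 CPM.

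No IL-1 family member passed. Il1b, the inflammatory ligand, had 1.42, 1.38, 2.00 and 0.792 CPM in saline and 2.82, 1.64, 2.34 and 1.56 CPM in AngII, with overlap (0.56 ± 0.29, adjusted p = 0.388 in edgeR). Il33, an alarmin of stromal cells, had 3.25 ± 1.16 and 4.39 ± 0.886 CPM, and its receptor Il1rl1 (ST2) 1.26 ± 0.212 and 1.10 ± 0.216 CPM. Il18 had 0.282 ± 0.168 and 0.549 ± 0.138 CPM, its binding protein Il18bp 6.01 ± 1.28 and 7.24 ± 0.903 CPM, and its receptor Il18r1 0.210 ± 0.0906 and 0.362 ± 0.172 CPM. Il1rn, the receptor antagonist, had 0.200 ± 0.172 and 0.350 ± 0.213 CPM. The receptor Il1r1 had 14.6 ± 0.883 and 16.9 ± 3.41 CPM.

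Of the remaining members, Il16, a chemoattractant for CD4+ cells, had 5.64 ± 1.49 CPM in saline and 7.99 ± 1.14 CPM in AngII (0.48 ± 0.19, adjusted p = 0.236 in edgeR). Il34, a ligand of the CSF1 receptor, had 2.52 ± 0.807 and 3.44 ± 0.474 CPM. Il10rb and Il13ra1 had log2 fold changes of -0.08 ± 0.17 and 0.18 ± 0.10, and Il10ra, the IL-10 receptor, 0.38 ± 0.20. Among IL-17 members, Il17rd had 0.38 ± 0.18, the ligand Il17d 0.24 ± 0.25, and the receptors Il17rc and Il17ra 0.12 ± 0.20 and -0.08 ± 0.46.

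**Figure D2:**
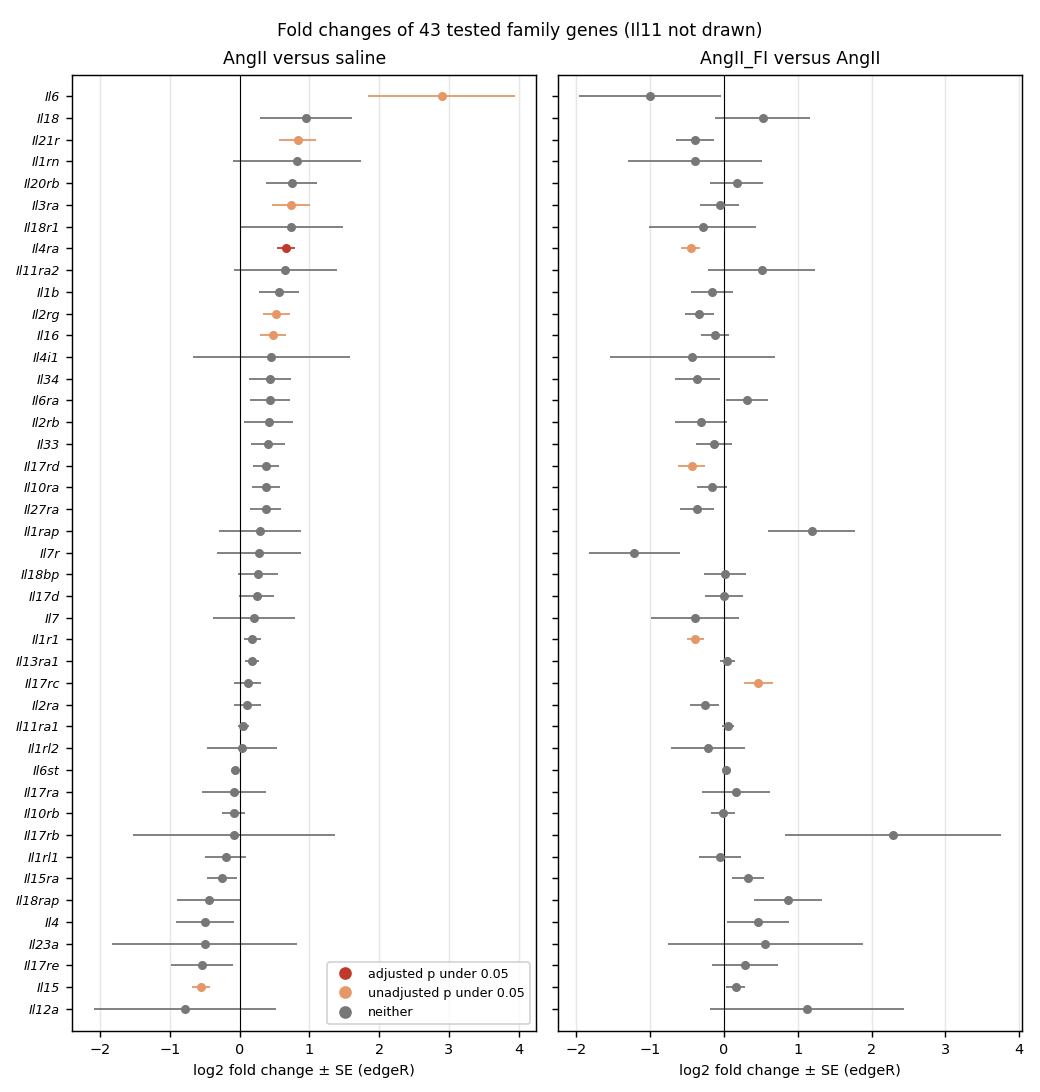
Log2 fold changes with SE from edgeR for 43 tested members, ordered by AngII against saline (left) and in the same order for AngII_FI against AngII (right); colours mark adjusted and unadjusted p under 0.05. Il4ra alone passes the adjusted threshold, on the left, and no member passes it on the right. Both panels use the same AngII libraries.

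AngII_FI against AngII asks which members moved when Forsythoside I was given with Ang II. The library AngII_FI 3 held 23465 CPM over 9 hepatocyte markers, against 27.1 to 38.2 CPM in saline. AngII 3 held 76.5 CPM. Without both libraries no member was called, against 0 genes higher and 2 lower of 18408. No member was called in either direction by edgeR, DESeq2 or limma-voom, and in edgeR 0% of all genes were called. Without AngII_FI 3 no member was called either, against 0.00544% of all genes lower and 0% higher. At an unadjusted p under 0.05 there were 5 members, 2 higher and 3 lower, against 10.6% of all genes, and without AngII_FI 3 there were 4, against 7.95%. DESeq2 had 5 such members, against 1675 of 18898 genes, and limma-voom 4, against 1578. The median log2 fold change was -0.03 over the members and 0.03 over all genes.

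Il4ra had 10.4, 14.5, 18.1 and 13.0 CPM in the 4 AngII_FI libraries, where 18.1 CPM was AngII_FI 3. That library lay within the AngII range of 17.8 to 21.7 CPM, and the other 3 lay below it. The log2 fold change was -0.45 ± 0.12 (adjusted p = 0.426 in edgeR), and without AngII_FI 3 it was -0.56 ± 0.12 (adjusted p = 0.539). The summed macrophage markers were 399 to 468 CPM in AngII_FI, which overlapped AngII. Summed markers of 4 other cell types lay lower in AngII_FI than in AngII without overlap: resting fibroblast at 809 to 901 CPM, endothelial at 405 to 501 against 538 to 734 CPM, pericyte and smooth muscle at 767 to 892 against 956 to 1091 CPM and mast cell at 4.2 to 6.81 against 7.88 to 11.4 CPM. No single marker of these 4 lists passed. Of 6 resting fibroblast markers, 1 had a log2 fold change above 0, and no tested marker of the other lists did. The part of these cell types in the values of Il4ra, Il1r1, Il17rd and Il2rg was not tested.

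Il1r1, the signalling IL-1 receptor, had 20.7, 18.8, 13.6 and 14.5 CPM in AngII and 11.9, 11.7, 15 and 10.6 CPM in AngII_FI. The groups overlapped through AngII_FI 3, and the log2 fold change was -0.39 ± 0.12 (adjusted p = 0.426 in edgeR), or -0.46 ± 0.12 without that library. Il17rd had 6.79 ± 0.765 CPM in AngII and 4.79 ± 0.507 CPM in AngII_FI, and Il2rg 11.0 ± 1.13 and 8.34 ± 1.37 CPM. Their log2 fold changes were -0.43 and -0.33 with AngII_FI 3 and -0.40 and -0.28 without it. These 2 were the members that lay lower without overlap in CPM, against 4.87% of all genes, and none lay higher, against 0.857%. Il2rg had 9.43 CPM in AngII_FI 1 (TMM factor 0.951) and 9.92 CPM in AngII 2 (TMM factor 1.03). Divided by these factors, its groups overlap. Without AngII_FI 3 the members lower without overlap were Il17rd, Il2rg, Il1r1, Il1rn and Il4ra, against 9.44% of all genes. Il12a alone was higher, against 1.33%. It had 0, 7, 5 and 12 counts in AngII and 15, 20, 0 and 13 in AngII_FI, with the 0 in AngII_FI 3. Il12a had entered the tests through saline and AngII_FI and not through AngII, so this is no support for a rise.

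Il17rc, a receptor chain for IL-17A and IL-17F, had 4.79 ± 0.359 CPM in AngII and 6.38 ± 1.8 CPM in AngII_FI (0.47 ± 0.20, adjusted p = 0.448 in edgeR). Its highest library was AngII_FI 3, at 8.80 CPM, and without it the log2 fold change was 0.32 ± 0.18. Il6 had 13, 9, 4 and 12 counts in AngII_FI, with overlap with AngII (-1.0 ± 0.96, or -0.73 ± 0.99 without AngII_FI 3). Il11 had 0, 8, 0 and 30 counts, at least 12.8-fold higher than in AngII against a floor of 3 counts over the group, with 2 libraries at 0. This bound also leaves out the spread between libraries. Without AngII_FI 4 it was 3.62-fold, and the difference did not pass (adjusted p = 0.433 in edgeR). Il11 had entered the tests through AngII_FI alone. Il1b had 1.78 ± 0.316 CPM, Il33 3.82 ± 0.261 CPM, Il6st 90.6 ± 5.38 CPM and Il15 18.3 ± 2.25 CPM, all overlapping AngII. Il7r had a log2 fold change of -1.21 ± 0.62 and Il18rap, an accessory chain of the IL-18 receptor, 0.87 ± 0.46, and -1.23 and 0.85 without AngII_FI 3.

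**Figure D3:**
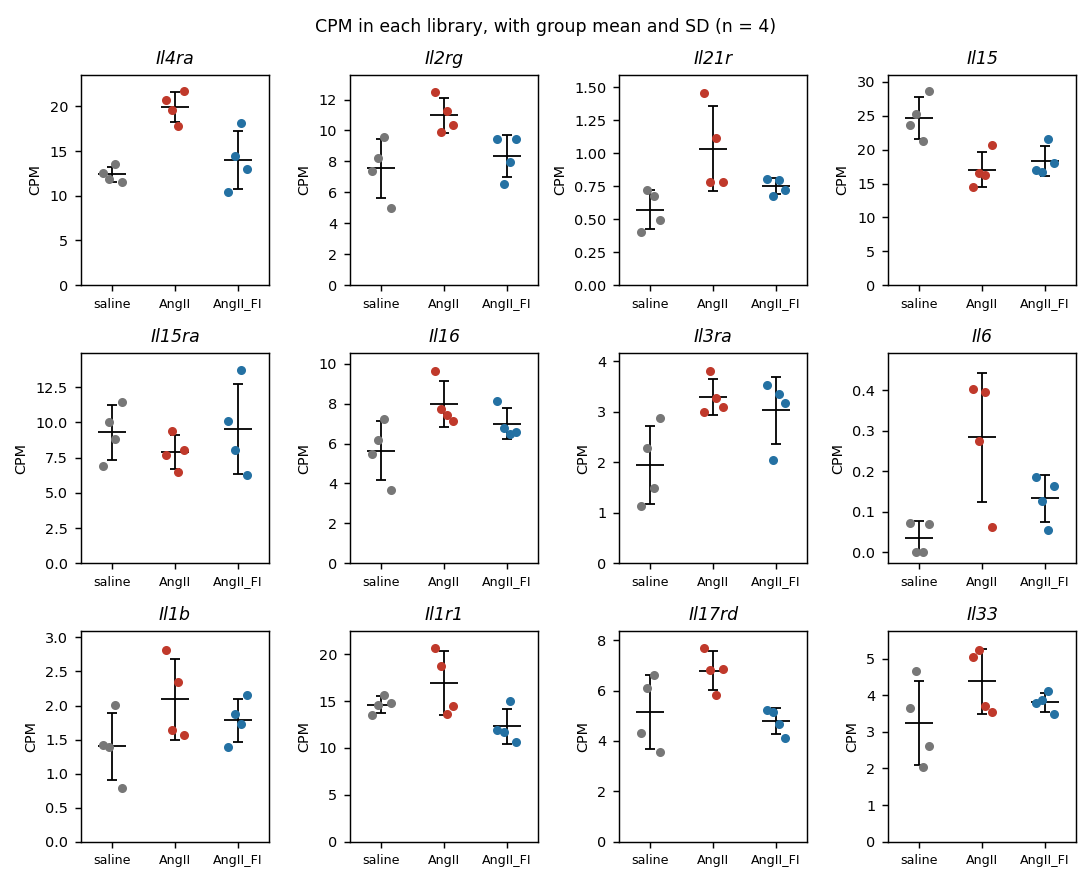
CPM of 12 members in each library, with the group mean and SD (n = 4). Il4ra and Il2rg are higher in all AngII than in all saline libraries, Il15 is lower, and the Il6 counts of 1 AngII library lie in the saline range.

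Several members had their highest value in AngII_FI 3. It was the highest of 12 libraries in 11 of 44 members (25%), against 22.3% of all tested genes. Il1rap, the accessory chain of the IL-1 and IL-33 receptors, had 26.7 CPM there and 3.31 to 3.76 CPM in the other AngII_FI libraries. Il18 had 2.13 CPM against 0.272 to 0.453, Il17rb, the IL-25 receptor, 1.17 against 0.0707 to 0.123, and Il1rn 0.879 against 0.0544 to 0.086 CPM. Without this library, the log2 fold change of AngII_FI against AngII went from 1.19 to -0.13 in Il1rap, from 0.53 to -0.59 in Il18, from 0.32 to -0.09 in Il6ra and from -0.40 to -2.31 in Il1rn. Il17rb then fell below the filter.

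**Figure D4:**
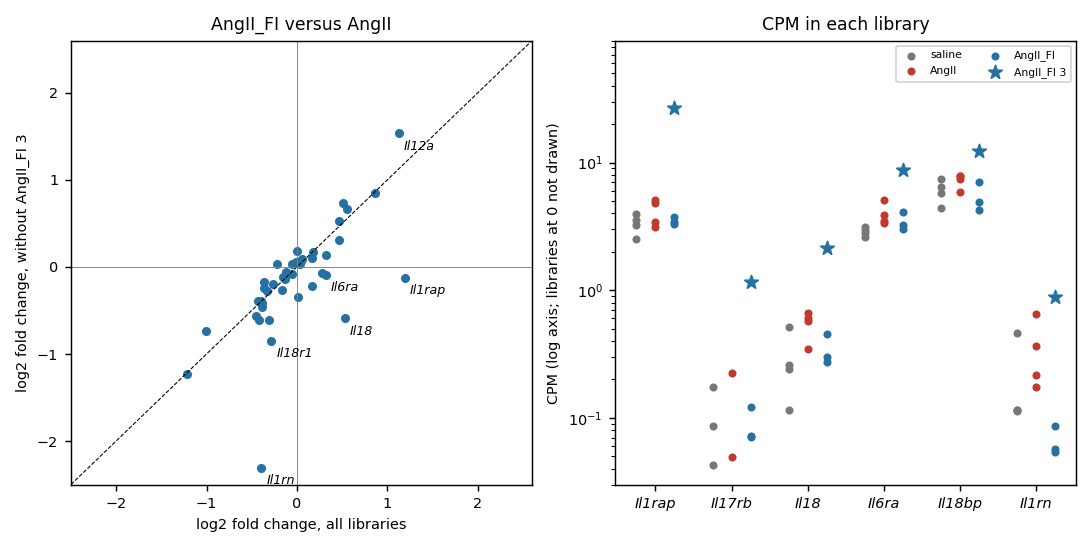
Left, log2 fold changes of AngII_FI against AngII for 42 members with all libraries (x) and without AngII_FI 3 (y), the dashed line marking equal values. Right, CPM in each library on a log axis for 6 members, with AngII_FI 3 as a star above every other library.

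AngII_FI against saline asks what both treatments together left changed. No member passed in edgeR, against 0.519% of all genes called higher and 0.185% lower. Without AngII_FI 3 no member passed, against 0.875% and 0.283%. DESeq2 and limma-voom called none either. At an unadjusted p under 0.05 there were 7 members in edgeR, 6 higher and 1 lower, against 17.6% of all genes. DESeq2 had 6, against 2947 of 18898 genes, and limma-voom 5, against 2792. Il15 had a log2 fold change of -0.39 ± 0.13 (adjusted p = 0.166 in edgeR), Il17rc 0.59 ± 0.20 (adjusted p = 0.173), Il3ra 0.68 ± 0.27 and Il4ra 0.22 ± 0.12 (adjusted p = 0.394). Without AngII_FI 3 these were -0.45, 0.43, 0.66 and 0.10. Il1rap had 1.48 ± 0.60 with AngII_FI 3 and 0.16 without it, and Il6ra 0.75 ± 0.29 and 0.34. No member lay higher or lower without overlap, against 3.33% and 5.75% of all genes. Without AngII_FI 3, Il6 lay higher without overlap (4.57% of all genes did), and Il15, Il1r1 and Il1rn lower (10.4%). Il6 had entered the tests through AngII and AngII_FI and not through saline, so its place here is no support for a rise.

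Genes that carry interleukin signals were read from lists chosen with earlier results known, beside 1.23% of all tested genes called higher and 0.429% called lower with Ang II. Single calls in lists of this size are given for the genes themselves and say nothing of a pathway. With Ang II, 1 of 23 JAK, STAT and SOCS genes rose: Socs2, a feedback inhibitor, from 24.2 to 36.1 CPM (0.57 ± 0.11, adjusted p = 0.0309 in edgeR). Among gp130 genes outside the family, Osmr, the oncostatin M receptor, rose from 13.4 to 18.5 CPM (0.45 ± 0.09, adjusted p = 0.0362 in edgeR). Of 15 STAT3 response genes 1 rose, Timp1, a metalloproteinase inhibitor (1.87 ± 0.34, adjusted p = 0.0248 in edgeR). Of 12 IL-4 and IL-13 response genes 1 rose and 1 fell. Mrc1, a macrophage mannose receptor that is also among the macrophage markers above, rose (0.42 ± 0.08, adjusted p = 0.0297) and Ccl11, an eosinophil chemokine, fell (-1.04 ± 0.23, adjusted p = 0.0459). None of 26 IL-1 adaptor and NF-kB genes, 10 other receptor partners and 10 processing proteases passed. The calls of Il4ra, Socs2, Osmr, Timp1, Mrc1 and Ccl11 with Ang II were each lost without saline 1, AngII 2, AngII 3 or AngII 4. In AngII_FI against AngII no gene of these lists passed, and against saline Socs2 did (0.56, adjusted p = 0.0481 in edgeR). That Socs2 call was made in 6 of 21 alternatives and lost in 11 of 12 fits that left out 1 library, AngII_FI 3 included. Over those 12 fits the adjusted p in edgeR ran from 0.0357 to 0.131, and the call was kept without AngII 1.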

How the data were processed

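RNA from ventricles of 12 wild-type mice was sequenced, 4 libraries in each of 3 groups taken from the treatment labels. Per the labels' protocols, 1.3 µg of RNA entered a SMARTER mRNA kit, and the RNA preparation is given as TRIzol in one field and RNeasy in another. The authors deposited raw read counts per gene, made with HISAT and featureCounts 1.5.0-p3 on GRCm38 per the submitters' processing notes. How strand and reads with several matches were handled, and which annotation was used, is not given in the sources used here. Overlapping genes and the near-identical Il11ra2 models are therefore uncertain. Multiples of 4 made up 33.9% to 36.6% of the values from 1 to 40 in each library, which bears on low counts.

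Members and lists were chosen with earlier results of these data known. Genes reaching a mean of 0.1 CPM in any group were scaled by TMM and tested with edgeR 4.0.16 (R 4.3.3), using the quasi-likelihood test with 3 group means fitted to the 12 libraries together, and p-values were adjusted by Benjamini-Hochberg over 18898 genes. CPM are counts scaled to a common library total, without the TMM factors, and overlap between groups was read on CPM. The totals ran from 68874852 to 80624227. Floors of 3 counts cover counting error only. The procedure was tested on simulated counts. Simulated 1.5-fold changes were called in 4 of 75 genes between AngII and saline. They were called in 4 of 51 genes between AngII_FI and AngII and in 8 of 55 between AngII_FI and saline. In the same order, 2-fold changes were called in 12, 23 and 24 of 57, 72 and 81 genes. For 4-fold changes, 43, 45 and 40 of 66, 69 and 59 genes were called. Unchanged genes made up 0%, 1.37% and 4% of the calls. A member that did not pass may thus still have changed. Coordinates and exon lengths came from GENCODE M21, which held 99.7% of the IDs. Named members were those past the threshold, the 5 smallest p in each direction per comparison and a fixed set. For the other lists they were the genes called in a comparison, or the 2 with the smallest p where a list had none. Sdc1, Hp and Arg1 in AngII_FI against AngII were of the latter kind and were not called. A gene that this rule takes is not reported here. Il11ra2, Il1rl2, Il23a, Il2rb and Il4i1 fell outside this rule. Alternatives were DESeq2 1.42.0, limma-voom (limma 3.58.1), other size factors and filters, a replicate block, the compared groups alone and each library left out. Leaving out mitochondrial genes, and leaving out both libraries with hepatocyte transcripts (AngII 3 and AngII_FI 3), were chosen after seeing the data. Replicate numbers were not taken to pair the libraries.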

Additional observations from a re-analysis of the deposited data

Results flagged for a closer look

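In groups of 4 libraries, a value was singled out where its gap to the nearest other library exceeded Dixon's critical share of the group's range, which chance gives in about 1 of 20 groups. Among 116 groups of 39 members, 7 values were singled out. In saline 1, Il10rb had 56.0 CPM against 106 to 113 in the other saline libraries, and Il11ra1 had 49.0 CPM against 62.2 to 64.2. In saline 3, Il1rn had 0.458 CPM against 0.113 to 0.115. The other 4 were all in AngII_FI 3, which held the most hepatocyte transcripts: Il1rap at 26.7 CPM, Il18 at 2.13 CPM, Il17rb at 1.17 CPM and Il1rn at 0.879 CPM. Il1rn in this library stood against 0.0544 to 0.086 CPM in the rest of its group. Il17rb had passed the filter through AngII_FI alone and fell below it without AngII_FI 3. Its high value there was thus selected for, and the rate of 1 in 20 does not apply to it.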

How the results depend on the processing

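The count of members higher in AngII than in saline, 1, became 0 with the replicate block and ran from 0 to 1 over the libraries left out, being 0 without saline 1, 2 or 4 or any 1 AngII library. The count of members lower, 0, became 1 (Il15) under DESeq2, limma-voom and filterByExpr and ran from 0 to 1 over the libraries left out, being 1 without saline 3 or AngII_FI 3. In the other 2 comparisons both counts were 0 under every alternative. Deviations of libraries that share a number correlated at -0.0459 to 0.264, with 1 of 12 pairs over 0.1, so the numbers were not taken as pairs. That pair was AngII 3 with AngII_FI 3, the libraries with hepatocyte transcripts. The 4 pairs of AngII and AngII_FI were all above 0, at 0.0491 to 0.264, and 10 of 24 checks among 4 candidates put a library's own number highest. With the replicate block Il4ra had adjusted p = 0.0725 in edgeR, and over all genes the calls in AngII against saline went from 233 higher and 81 lower to 63 and 10. In AngII_FI against AngII they went from 0 and 0 to 6 and 0. In AngII_FI against saline they went from 98 and 35 to 152 and 28. Among 152 fold changes of named genes, 38 changed sign in some alternative, none of them called; the fitted value of Il11 is no bound and was left out. Without both libraries with hepatocyte transcripts, for AngII against saline, the log2 fold changes were Il17ra 0.046 and Il7 -0.22. For AngII_FI against AngII these were Il10rb 0.072, Il17ra -0.35, Il17re -0.061, Il18 -0.45, Il18bp -0.27, Il1rap -0.21, Il1rl1 0.031, Il6ra -0.13, Il7 0.000111, Sdc1 -0.56 and Hp -1.24. For AngII_FI against saline these were Il15ra -0.11, Il17ra -0.30, Il18bp -0.082, Il18r1 -0.11, Il1rn -1.49 and Il4 0.024. Under limma-voom, for AngII against saline, the log2 fold change of Il7 was -0.11. For AngII_FI against AngII these were Il17d -0.058 and Il18bp -0.064. For AngII_FI against saline these were Il18r1 -0.038, Il1rn -0.25 and Il27ra -0.046. With the replicate block, for AngII against saline, the log2 fold change of Il7 was -0.11. For AngII_FI against AngII these were Il17d -0.032 and Il18bp -0.046. For AngII_FI against saline these were Il1rn -0.092 and Il27ra -0.032. Leaving out 1 library at a time, for AngII against saline, log2 fold changes that crossed 0 ran as Il10rb -0.25 to 0.014, Il11ra1 -0.0093 to 0.076, Il17ra -0.44 to 0.19, Il17rb -2.03 to 0.71, Il17rc -0.022 to 0.20, Il2ra -0.016 to 0.26 and Il7 -0.21 to 0.52. For AngII_FI against AngII they ran as Il10rb -0.053 to 0.055, Il13ra1 -0.039 to 0.079, Il17d -0.24 to 0.19, Il17ra -0.22 to 0.53, Il17re -0.069 to 0.51, Il18 -0.59 to 0.80, Il18bp -0.34 to 0.19, Il18r1 -0.85 to 0.049, Il1rap -0.13 to 1.46, Il1rl1 -0.29 to 0.15, Il1rn -2.31 to 0.066, Il20rb -0.13 to 0.55, Il3ra -0.16 to 0.084, Il6ra -0.094 to 0.47, Il7 -0.71 to 0.027, Sdc1 -0.57 to 1.59, Hp -1.38 to 6.03 and Arg1 -3.72 to 11.25. For AngII_FI against saline they ran as Il10rb -0.27 to 0.0024, Il12a -0.071 to 0.75, Il15ra -0.11 to 0.22, Il17ra -0.30 to 0.36, Il17rd -0.20 to 0.071, Il18bp -0.083 to 0.45, Il18r1 -0.11 to 0.79, Il1rn -1.49 to 1.19, Il27ra -0.20 to 0.13, Il34 -0.24 to 0.32, Il4 -0.20 to 0.17, Il6st -0.066 to 0.011 and Il7 -0.46 to 0.12.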
